A study of Mus musculus with 7 samples.

Results

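The 10 genes described here encode proteins that the liver releases into the blood, namely the hepatokines *Fgf21*, *Gdf15*, *Lect2*, *Ahsg*, *Fetub*, *Inhbe* and *Selenop* and the insulin-like growth factor (IGF)-binding proteins *Igfbp1*, *Igfbp2* and *Igfbp4*. They were taken by symbol from the table of gene counts, which listed all 10 among 23347 genes. RNA was sequenced from the livers of 7 male C57BL/6 mice, 1 library per mouse, to ask what loss of β-1,4-galactosyltransferase 1 in hepatocytes does to the liver transcriptome in steatohepatitis. All 7 mice were 6 to 8 weeks old at the start and received the CDAHFD, a high-fat diet without choline in which amino acids replace protein, which brings on fatty liver with inflammation, for 15 weeks. The 4 controls carried *B4galt1* flanked by recombination sites (*B4galt1* flox/flox, called WT in the sample labels), and the other 3 carried the same alleles with a Cre recombinase under the albumin promoter, which removes the gene from hepatocytes (*B4galt1* hep-/-, B4galt1-HKO in the labels). Mice with Cre alone and mice on chow were not analysed here.

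Hepatokines are hormones of the liver. FGF21 and GDF15 are released under nutrient and cell stress, the former acting on cells that carry its co-receptor β-Klotho and the latter on the hindbrain through GFRAL. IGF-binding proteins hold IGF1 and IGF2 in the circulation and set how much of them reaches the receptor. The fetuins (*Ahsg* encodes fetuin-A, *Fetub* fetuin-B) are abundant plasma glycoproteins of the cystatin superfamily, activin E (*Inhbe*) is a liver member of the transforming growth factor-β superfamily that signals to adipose tissue, LECT2 is a hepatocyte-derived chemotactic factor, and selenoprotein P (*Selenop*) carries selenium from the liver to other organs.

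Total counts ran from 37838654 to 39668509 in *B4galt1* flox/flox libraries and from 30608271 to 34586588 in those labelled *B4galt1* hep-/-. Mitochondrially encoded transcripts took 3.88% to 7.996% of the former and 14.4% to 22.6% of the latter. *B4galt1* itself stood at 48.7, 53.0, 49.2 and 51.6 CPM (counts scaled to library size, normalized by edgeR's TMM method) in flox/flox mice 1 to 4 and at 28.4, 23.9 and 53.7 CPM in mice 1 to 3 labelled hep-/-. Mouse 3 of these went against its label, so that the group is called "labelled *B4galt1* hep-/-" throughout, and *B4galt1* passed the thresholds (log2 fold change -0.96, adjusted p = 0.0139, edgeR) without that library but not with it (-0.52, adjusted p = 0.181). Hepatocyte markers were abundant in every library, the summed level of 8 of them lying between 80901 and 120306 CPM in flox/flox livers and between 95745 and 151617 CPM in those labelled hep-/-. Of these 8, edgeR called none, 3 had an unadjusted p under 0.05 (1 lower and 2 higher), and DESeq2 called 2. Summed macrophage markers, 12 genes, were 1669 to 3677 CPM against 825 to 934 CPM, with 6 called lower, or 4 without mouse 3 labelled hep-/-. In whole liver, fewer cells of a type and less RNA per cell cannot be told apart.

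A gene was called changed at an adjusted p under 0.05 (edgeR quasi-likelihood test, Benjamini-Hochberg over 15179 tested genes) and an absolute log2 fold change over 0.58. All 10 members had enough counts to be tested. A single member was called, *Fetub*, which was higher in livers labelled *B4galt1* hep-/-, against 15.8% of all tested genes called in either direction and 8.004% called higher. No member was called lower, where the share over all tested genes was 7.83%. At an unadjusted p under 0.05 there were 2 lower and 3 higher members, and DESeq2 called 1 lower and 1 higher. Values of the groups did not overlap for 3 members (*Fetub*, *Igfbp4* and *Lect2*), against 28.6% of all tested genes. The log2 fold change was above 0 for 5 members and below 0 for 5, with a median of -0.015, beside 0.021 over all tested genes.

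**Figure D1:**
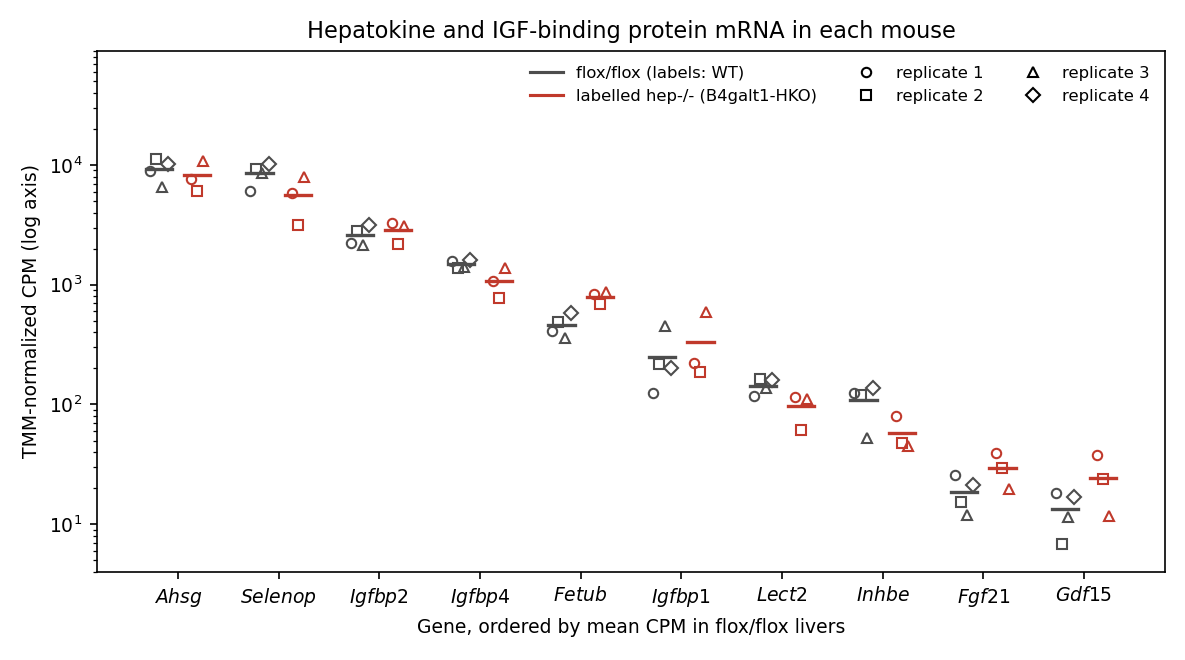
TMM-normalized CPM (log axis) of the 10 genes in each mouse, with *B4galt1* flox/flox in grey and mice labelled *B4galt1* hep-/- in red; symbols give the replicate number and horizontal lines the group mean. The groups lie apart for *Fetub*, *Igfbp4* and *Lect2* and overlap for the other 7 genes.

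Per length, the same 3 genes led in every liver. *Ahsg* was the most abundant member in all 7 mice at 4468 to 7570 FPKM (fragments per gene length and library size, as deposited), *Selenop* came next at 1534 to 4321 FPKM and *Igfbp2* followed at 1347 to 1710 FPKM. *Gdf15* was the lowest in all 7 at 4.92 to 24.3 FPKM. The middle of the order differed between the groups, since *Igfbp4* ranked 4 in every flox/flox liver and 5 in every liver labelled hep-/-, while *Fetub* ranked 5 or 6 in flox/flox livers and 4 in all 3 labelled hep-/-. *Fgf21* (13.5 to 37.6 FPKM), *Inhbe* (17.98 to 63.9 FPKM) and *Lect2* (30.7 to 74.9 FPKM) shared ranks 7 to 9. No test was made of these ranks.

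The called gene, *Fetub*, lies beside another member. *Ahsg* and *Fetub* adjoin each other on chromosome 16 and encode related proteins, fetuin-A, an inhibitor of calcification and of insulin receptor signalling, and fetuin-B, a protease inhibitor needed for egg fertility. Their upstream regions are shown because the genes lie side by side and their mRNAs differed unequally. They are the 200 bases before the annotated start site (for *Fetub*, the first of 2) from RefSeq GRCm38.p6, chr16:22891815-22892014 and chr16:22918182-22918381, both on the + strand, written 5′ to 3′. Capitals mark a match on the opposite strand to TTGCNNAA, a C/EBP-type motif that 7.47% of 32851 such windows hold on either strand; neither *Fetub* window holds it.
Ahsg: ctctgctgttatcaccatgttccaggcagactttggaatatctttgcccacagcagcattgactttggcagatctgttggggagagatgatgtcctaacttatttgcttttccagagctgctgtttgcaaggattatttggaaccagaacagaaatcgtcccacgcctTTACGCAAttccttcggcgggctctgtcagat
Fetub: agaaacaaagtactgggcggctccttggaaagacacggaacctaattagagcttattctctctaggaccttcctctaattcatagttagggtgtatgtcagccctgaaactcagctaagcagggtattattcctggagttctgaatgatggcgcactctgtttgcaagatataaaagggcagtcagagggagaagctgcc

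*Fetub* (NCBI gene 59083) was at 408, 488, 362 and 586 CPM in flox/flox mice 1 to 4 and at 841, 688 and 863 CPM in mice 1 to 3 labelled hep-/-. The lowest liver labelled hep-/- was above the highest flox/flox liver. The mean was 461 CPM with an SD of 98.2 (n = 4) in flox/flox mice and rose to 797 CPM with an SD of 95.4 (n = 3) in those labelled hep-/-, a log2 fold change of 0.79 (SE 0.22, 1.73-fold, adjusted p = 0.0351, edgeR). The direction was the same when each mouse was left out, with log2 fold changes of 0.69 to 0.93. The call was lost without flox/flox mouse 1, 2 or 3 and without mouse 1 or 3 labelled hep-/- (log2 fold change 0.69 to 0.82, adjusted p 0.0715 to 0.0901), and kept without flox/flox mouse 4 or mouse 2 labelled hep-/-. Without mouse 3, whose *B4galt1* went against its label, *Fetub* differed by 0.72 (adjusted p = 0.0715).

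*Ahsg* (NCBI gene 11625), in contrast, overlapped between the groups. Its levels were 8935, 11139, 6573 and 10168 CPM in flox/flox mice and at 7682, 6096 and 10867 CPM in those labelled hep-/-, where mouse 2 was the lowest of all 7 and mouse 3 the second highest. The groups differed by a log2 fold change of -0.16 (SE 0.29, adjusted p = 0.725), and it was 0.011 without mouse 2 labelled hep-/-. RefSeq places a long non-coding RNA gene, *Gm30505*, over *Ahsg*, and as the strand setting of the counting is not given in the sources used here, reads of the pair cannot be told apart.

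Counting both fetuins in the same liver takes differences in scaling out of the comparison. For every 100 *Ahsg* counts there were 4.57, 4.38, 5.51 and 5.76 *Fetub* counts in flox/flox livers and 10.9, 11.3 and 7.94 in livers labelled hep-/-. The group means were 5.05 ± 0.68 (SD, n = 4) and 10.1 ± 1.84 (SD, n = 3), a difference of 0.99 on the log2 scale. It ranged from 0.89 to 1.15 when each mouse was left out. This ratio was chosen after the values were seen and is given without a test.

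**Figure D2:**
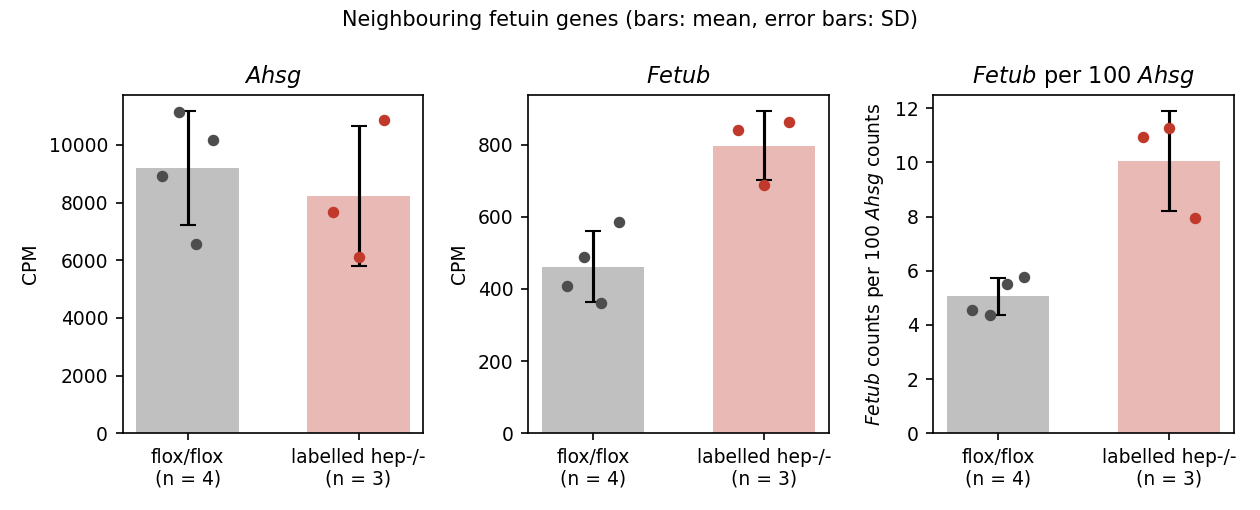
*Ahsg* CPM (left), *Fetub* CPM (middle) and *Fetub* counts per 100 *Ahsg* counts (right) in *B4galt1* flox/flox (grey, n = 4) and labelled *B4galt1* hep-/- livers (red, n = 3); points are mice, bars the mean and error bars the SD. *Ahsg* overlaps between the groups, whereas every red point is above every grey point for *Fetub* and for the ratio, with means of 5.05 and 10.1.

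The stress-responsive hormones *Fgf21* and *Gdf15* had higher means in livers labelled *B4galt1* hep-/- without passing the thresholds, and *Inhbe* a lower one. The 200 bases upstream of *Fgf21* (chr7:45615491-45615690, - strand) and *Inhbe* (chr10:127351849-127352048, - strand; RefSeq GRCm38.p6) are shown because they alone among the members hold TGATGNAA, the core of the amino acid response element bound by ATF4 and C/EBP dimers, while the mRNAs differed in opposite directions. The match, in capitals, lies on the opposite strand in both, at -139 to -132 for *Fgf21* and at -181 to -174 for *Inhbe* relative to the start site, and 2.87% of all windows hold the motif on either strand.
Fgf21: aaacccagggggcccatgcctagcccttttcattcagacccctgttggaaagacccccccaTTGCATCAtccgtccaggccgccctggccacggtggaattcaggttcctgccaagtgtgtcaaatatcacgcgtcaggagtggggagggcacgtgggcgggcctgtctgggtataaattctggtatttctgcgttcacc
Inhbe: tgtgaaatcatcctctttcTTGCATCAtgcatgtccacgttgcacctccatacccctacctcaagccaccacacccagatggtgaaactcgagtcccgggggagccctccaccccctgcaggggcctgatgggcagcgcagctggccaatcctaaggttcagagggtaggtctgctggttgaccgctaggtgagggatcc

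*Fgf21* (NCBI gene 56636) was at 25.7, 15.4, 11.9 and 21.3 CPM in flox/flox mice 1 to 4 and at 39.3, 29.7 and 19.7 CPM in mice labelled hep-/-. Mice 1 and 2 of the latter exceeded every flox/flox mouse, and mouse 3 lay inside their range. With a log2 fold change of 0.68 (SE 0.29, adjusted p = 0.127, edgeR) the difference missed the threshold, as it did without labelled hep-/- mouse 3 (0.89, adjusted p = 0.0699) and without labelled hep-/- mouse 1 (0.40, adjusted p = 0.412).

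*Gdf15* (NCBI gene 23886) showed the same arrangement, at 18.3, 6.83, 11.5 and 16.9 CPM in flox/flox mice and 37.5, 23.6 and 11.6 CPM in those labelled hep-/-. Its log2 fold change was 0.86 (SE 0.39, adjusted p = 0.145), moving to 1.18 (adjusted p = 0.0523) without labelled hep-/- mouse 3 and to 0.39 (adjusted p = 0.530) without labelled hep-/- mouse 1. For both hormones the 5 highest mice came in one order, labelled hep-/- mice 1 and 2, flox/flox mice 1 and 4 and then labelled hep-/- mouse 3, so that the same libraries were high or low for both. Limma's voom method with sample quality weights called both (adjusted p = 0.0428 for *Fgf21* and 0.0442 for *Gdf15*).

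*Inhbe* (NCBI gene 16326), which encodes the activin β-E subunit, was at 124, 121, 52.2 and 138 CPM in flox/flox mice and at 79.7, 47.7 and 45.2 CPM in those labelled hep-/-. Flox/flox mouse 3 stood apart from the other 3 controls and below labelled hep-/- mouse 1, so that the groups overlapped. Its log2 fold change of -0.92 (SE 0.33, adjusted p = 0.0751, edgeR) was the most negative among the members. Without flox/flox mouse 3 it was -1.15 (adjusted p = 0.0226) and without labelled hep-/- mouse 1 it was -1.24 (adjusted p = 0.0487), both past the thresholds, as was DESeq2 on all 7 mice (-0.91, adjusted p = 0.0296). *Inhbc*, the neighbouring gene for the activin β-C subunit, differed by 0.20 (SE 0.25, adjusted p = 0.622), with means of 43.5 CPM (SD 10.6, n = 4) and 49.9 CPM (SD 16.3, n = 3).

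**Figure D3:**
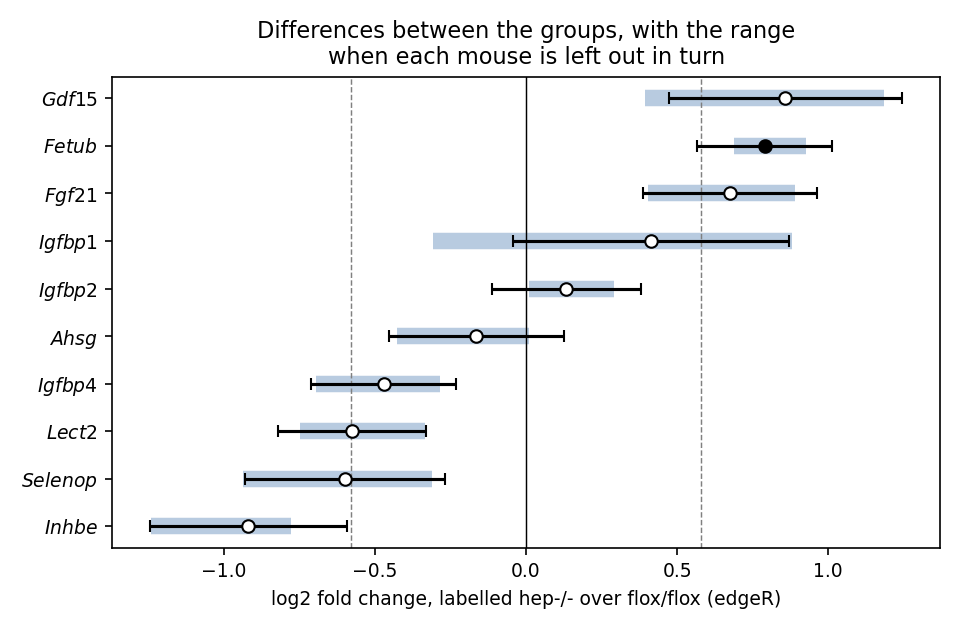
Log2 fold change of the 10 genes (labelled *B4galt1* hep-/- over *B4galt1* flox/flox, edgeR), with bars for the SE, a filled point where the gene passed the thresholds and a pale band for the range when each of the 7 mice was left out. Dashed lines mark the fold change threshold; *Fetub* is the filled point, and the bands of *Igfbp1* and *Ahsg* cross 0.

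Among the IGF-binding proteins, *Igfbp4* was the one whose groups did not overlap. *Igfbp4* (NCBI gene 16010), an inhibitor of IGF action that the protease PAPP-A cleaves, was at 1575, 1385, 1397 and 1601 CPM in flox/flox mice and at 1076, 777 and 1372 CPM in those labelled hep-/-. Labelled hep-/- mouse 3 was below the lowest control by a narrow margin. This gave a log2 fold change of -0.47 (SE 0.24, adjusted p = 0.192, edgeR), or -0.28 (adjusted p = 0.439) without labelled hep-/- mouse 2, and the controls spanned 1.16-fold.

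*Igfbp2* (NCBI gene 16008), the most abundant binding protein here and one that insulin and leptin regulate, showed the smallest difference of the members. It was at 2238, 2822, 2148 and 3140 CPM in flox/flox mice and 3256, 2183 and 3075 CPM in those labelled hep-/-. A log2 fold change of 0.13 (SE 0.25, adjusted p = 0.737) was smaller than its SE. Its neighbour *Igfbp5* was low, with means of 3.90 ± 0.96 and 4.43 ± 1.91 CPM (± SD over the 4 and 3 mice, as for all values written so), and differed by 0.18 (adjusted p = 0.743).

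*Igfbp1* is the binding protein that insulin suppresses and fasting induces, through FOXO factors at an insulin response element. Its upstream 200 bases (chr11:7197587-7197786, + strand, RefSeq GRCm38.p6) are shown because CAAAACAA, the core of that element, is in this window of *Igfbp1* and of no other member. The match is in capitals at -108 to -101, and 1.63% of all windows hold it on either strand.
Igfbp1: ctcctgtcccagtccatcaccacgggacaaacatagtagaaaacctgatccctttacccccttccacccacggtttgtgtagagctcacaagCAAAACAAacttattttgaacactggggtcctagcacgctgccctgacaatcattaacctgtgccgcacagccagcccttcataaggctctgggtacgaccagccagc

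*Igfbp1* (NCBI gene 16006) varied more between mice than any other member within the controls, over a 3.67-fold range. It was at 124, 217, 456 and 199.98 CPM in flox/flox mice and at 220, 186 and 591 CPM in those labelled hep-/-, with mouse 3 the highest of each group. Over all 7 mice the log2 fold change was 0.41 (SE 0.46, adjusted p = 0.559), and it turned to -0.31 (adjusted p = 0.652) without labelled hep-/- mouse 3. *Igfbp3*, its neighbour and the main circulating IGF carrier, differed by 0.46 (SE 0.22, adjusted p = 0.174), with means of 28.4 ± 7.43 and 39.0 ± 4.73 CPM.

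*Lect2* and *Selenop* were lower on average in livers labelled *B4galt1* hep-/- without passing the thresholds. *Lect2* (NCBI gene 16841) was at 118, 162, 136 and 160 CPM in flox/flox mice and at 116, 61.4 and 112 CPM in those labelled hep-/-. None of the livers labelled hep-/- reached the lowest control, flox/flox mouse 1, although mice 1 and 3 came close. The log2 fold change was -0.58 (SE 0.25, adjusted p = 0.126, edgeR) and -0.33 (adjusted p = 0.329) without labelled hep-/- mouse 2. *Lect2* overlaps *Fbxl21* in RefSeq, and reads of the pair cannot be told apart without strand.

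*Selenop* (NCBI gene 20363) was at 6112, 9272, 8611 and 10247 CPM in flox/flox mice and 5846, 3140 and 7979 CPM in those labelled hep-/-. Labelled hep-/- mouse 2 held the lowest level by a wide margin, and mouse 3 lay inside the range of the controls. The log2 fold change was -0.60 (SE 0.33, adjusted p = 0.232), and it was -0.31 (adjusted p = 0.521) without mouse 2. *Selenop* overlaps *Ccdc152* in RefSeq, with the same limit on its reads.

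Across the members, 1 library recurred. Labelled hep-/- mouse 2 was the lowest of all 7 mice for *Ahsg*, *Igfbp4*, *Lect2* and *Selenop* and the second lowest for *Igfbp1*, *Igfbp2* and *Inhbe*, and it was above every control for *Fetub*, *Fgf21* and *Gdf15*. Relative to the mean of the controls it stood at -1.45 on the log2 scale for *Selenop*, -1.23 for *Lect2* and -0.94 for *Igfbp4*. This library was also the one with the fewest counts, 30608271. Its mitochondrially encoded share was 22.1%, beside 22.6% in labelled hep-/- mouse 1 and 14.4% in labelled hep-/- mouse 3. Whether depth or the mitochondrial share had a part in these levels was not tested.

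**Figure D4:**
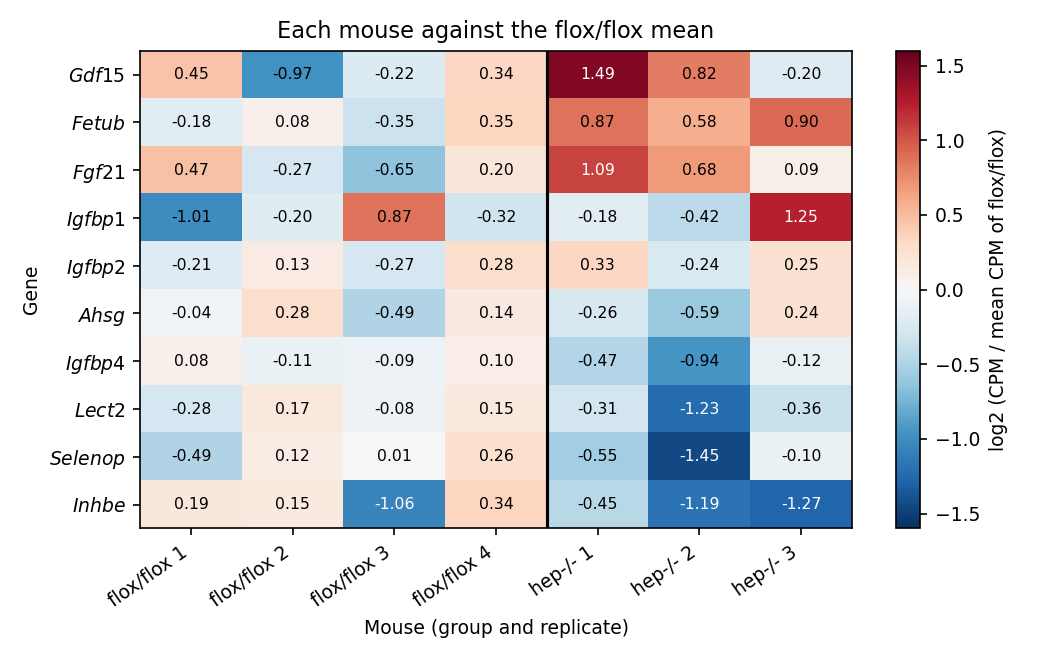
Log2 ratio of each mouse's CPM to the mean CPM of the *B4galt1* flox/flox mice for the 10 genes (rows, ordered by fold change), with red above and blue below that mean and the value printed in each cell; columns marked hep-/- are the mice labelled so. *Fetub* and *Fgf21* are above the control mean in all 3 of these mice, *Igfbp4*, *Lect2*, *Selenop* and *Inhbe* are below it in all 3, and mouse 2 has the deepest values for *Selenop*, *Lect2* and *Igfbp4*.

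The genes with which the members act gave a mixed picture. Over all tested genes, 15.8% were called in either direction. Among the lists below, the share was 14.3% for the IGF axis, 28.6% for FGF21, 20% for GDF15, 9.09% for activins and 0% for LECT2. It was 20% for the selenium list, 11.8% for other secreted factors, 29.2% for the integrated stress response and 23.8% for PPARα and fasting genes. For insulin and FOXO genes and for hepatocyte identity it was 13.3% and 10%. Of 14 tested genes of the IGF axis (ligands, receptors, other binding proteins and their proteases), 2 were lower and none higher (edgeR, adjusted p under 0.05 and fold threshold); at an unadjusted p under 0.05 there were 3 lower and 1 higher, and DESeq2 called 3 and 1. *Igf2r*, the receptor that clears IGF2, fell from 59.3 ± 4.37 to 35.7 ± 2.38 CPM (log2 fold change -0.73, SE 0.17, adjusted p = 0.0164), and *Adam9*, a membrane protease, from 59.6 ± 18.2 to 28.4 ± 9.38 CPM (-1.07, SE 0.29, adjusted p = 0.0292). The list's median log2 fold change was 0.09, beside 0.021 over all tested genes. The call of *Igf2r* was lost without flox/flox mouse 2 (-0.73, adjusted p = 0.0557), and that of *Adam9* without flox/flox mouse 2 or 3 or labelled hep-/- mouse 2 (adjusted p 0.0667 to 0.0751).

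For the FGF21 receptor and processing genes, 7 of 9 in the table were tested, 1 was lower and 1 higher, and the median log2 fold change was 0.27. *Klb*, which encodes β-Klotho, fell from 24.9 ± 6.13 to 9.55 ± 4.30 CPM (log2 fold change -1.39, SE 0.31, adjusted p = 0.0145), and its call held without each of the 7 mice. *Fap*, a protease known to inactivate human FGF21, was higher at a very low level, 0.22 ± 0.089 against 0.96 ± 0.29 CPM (2.09, SE 0.53, adjusted p = 0.0247). At the depth of these libraries, 3 counts correspond to 0.069 to 0.099 CPM. The call of *Fap* was lost without flox/flox mouse 2, 3 or 4 or labelled hep-/- mouse 2 (adjusted p 0.0507 to 0.0927).

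The GDF15 list had 5 tested genes, of which *Pcsk6*, a proprotein convertase, was lower at 44.5 ± 14.6 against 79.7 ± 9.88 CPM (log2 fold change -0.84, SE 0.23, adjusted p = 0.0321). None was called higher by edgeR or DESeq2, and 1 was higher at an unadjusted p under 0.05. *Furin*, the convertase with the highest level, was at 206 ± 28.5 and 160 ± 16.5 CPM (-0.37, adjusted p = 0.21), and the median of the list was 0.09. The call of *Pcsk6* was lost without flox/flox mouse 2 or 3 or labelled hep-/- mouse 1 or 2 (adjusted p 0.0649 to 0.0905).

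In the activin and inhibin axis, 1 of 11 tested genes was called. *Inha*, the inhibin α subunit, was higher at 4.88 ± 4.43 against 0.99 ± 0.82 CPM (log2 fold change 2.30, SE 0.69, adjusted p = 0.0436), but labelled hep-/- mouse 2 alone held 9.98 CPM, the groups overlapped, and without that mouse the difference was 1.23 (adjusted p = 0.256). None of the list was called lower by edgeR or DESeq2, nor was any lower at an unadjusted p under 0.05, and the median was 0.26. Without flox/flox mouse 2, 3 or 4 the call of *Inha* was lost as well.

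Of the 4 receptors proposed for LECT2, none was called by edgeR or DESeq2, and 1 was lower at an unadjusted p under 0.05. This was *Met*, the hepatocyte growth factor receptor, at 70.8 ± 14.004 and 46.3 ± 9.85 CPM (log2 fold change -0.61, SE 0.22, adjusted p = 0.0824), which passed the thresholds without flox/flox mouse 1 (-0.75, adjusted p = 0.0375). The median of the list was -0.11.

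A list of selenoprotein P receptors, selenium supply genes, selenoproteins and selenium-binding proteins had 25 tested genes. Of these, 4 were lower and 1 higher, with a median log2 fold change of -0.34. All called genes encode selenoproteins, and no receptor or supply gene was called. At an unadjusted p under 0.05, 6 were lower and 3 higher, and limma on log2(FPKM + 1) called 7 lower and 1 higher. *Gpx1*, the selenium-dependent glutathione peroxidase of the cytosol, fell from 1915 ± 220 to 853 ± 361 CPM (-1.17, SE 0.30, adjusted p = 0.0249), and *Msrb1*, a methionine sulfoxide reductase, from 238 ± 26.9 to 111 ± 29.96 CPM (-1.095, SE 0.23, adjusted p = 0.0113). *Selenoh*, a nuclear selenoprotein, fell by 0.97 (adjusted p = 0.049) at 7.47 ± 1.20 against 3.81 ± 1.38 CPM, while *Selenok*, a selenoprotein of the endoplasmic reticulum, rose by 0.93 (adjusted p = 0.023). The remaining called gene was *Txnrd1*, a thioredoxin reductase (-0.73, adjusted p = 0.0449), named here after its values were seen. The call of *Msrb1* held without each mouse, that of *Gpx1* was lost without flox/flox mouse 2, 3 or 4 or labelled hep-/- mouse 1 (adjusted p 0.0523 to 0.061), that of *Selenok* without flox/flox mouse 2 or 3 or labelled hep-/- mouse 1 (adjusted p 0.0577 to 0.0744), that of *Txnrd1* without flox/flox mouse 2, 3 or 4 or labelled hep-/- mouse 2 or 3 (adjusted p 0.0531 to 0.114), and that of *Selenoh* in 6 of 7 cases (adjusted p 0.0525 to 0.131), all but labelled hep-/- mouse 1. On all 7 mice the call of *Selenoh* was also lost under RLE (adjusted p = 0.0504) and upper-quartile normalization (adjusted p = 0.0546) and with voom and sample quality weights (adjusted p = 0.0555). Without labelled hep-/- mouse 3, 2 were lower and 1 higher.

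Other factors secreted by the liver were tested for 34 genes, with 3 higher, 1 lower and a median log2 fold change of -0.04. At an unadjusted p under 0.05, 8 were higher and 4 lower, whereas limma on log2(FPKM + 1) called 3 higher and 5 lower. The largest rise was in *Angptl8*, an insulin-induced regulator of lipoprotein lipase, from 7.99 ± 2.60 to 28.4 ± 9.86 CPM (1.83, SE 0.31, adjusted p = 0.0054). *Thpo*, thrombopoietin, rose from 9.90 ± 3.48 to 21.2 ± 4.97 CPM (1.098, SE 0.29, adjusted p = 0.0266). *Gpnmb*, a glycoprotein that lipid-laden macrophages also express, fell from 709 ± 277 to 215 ± 44.3 CPM (-1.72, SE 0.31, adjusted p = 0.0069); it is one of the macrophage markers whose summed level was 825 to 934 CPM in livers labelled hep-/- against 1669 to 3677 CPM, and the part of those cells in its fall was not tested. Calls of *Angptl8* and *Gpnmb* held without each mouse. That of *Thpo* was lost without flox/flox mouse 2 or 4 or labelled hep-/- mouse 2 or 3 (adjusted p 0.0615 to 0.0747). Without labelled hep-/- mouse 3 the count was 1 higher and 2 lower.

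The lists that follow hold genes of the pathways to which the hormones answer. Of 24 integrated stress response genes, which ATF4 and its partners control and with which *Fgf21* and *Gdf15* are induced, 4 were higher and 3 lower (29.2% of the list, beside 15.8% of all tested genes, median log2 fold change -0.11). *Atf4* itself rose from 93.8 ± 29.1 to 180 ± 40.7 CPM (0.94, SE 0.26, adjusted p = 0.0321). *Asns*, asparagine synthetase, fell from 26.8 ± 4.60 to 8.22 ± 0.77 CPM (-1.71, SE 0.21, adjusted p = 0.0022), *Stbd1*, a glycogen-binding protein, from 67.2 ± 7.14 to 22.9 ± 3.37 CPM (-1.55, SE 0.19, adjusted p = 0.0022) and *Trib3*, a pseudokinase, from 15.5 ± 3.34 to 7.42 ± 1.85 CPM (-1.06, SE 0.25, adjusted p = 0.0196). The other called genes, named here after their values were seen, were higher: *Cebpb*, a transcription factor (0.94, adjusted p = 0.0184), *Ppp1r15a*, a regulatory subunit of the eIF2α phosphatase (0.76, adjusted p = 0.02), and *Ddit3*, which encodes CHOP (0.73, adjusted p = 0.0238). Calls of *Asns* and *Stbd1* held without each mouse, that of *Trib3* was lost without flox/flox mouse 2 or labelled hep-/- mouse 2 or 3 (adjusted p 0.0519 to 0.0665), and that of *Atf4* without flox/flox mouse 1, 2 or 3 or labelled hep-/- mouse 1 or 3 (adjusted p 0.0578 to 0.0921). The call of *Cebpb* was lost without flox/flox mouse 2 (adjusted p = 0.0676) or labelled hep-/- mouse 1 (adjusted p = 0.0594), that of *Ppp1r15a* without flox/flox mouse 2 (adjusted p = 0.0775) or labelled hep-/- mouse 2 (adjusted p = 0.0563), and that of *Ddit3* without flox/flox mouse 2, 3 or 4 or labelled hep-/- mouse 2 (adjusted p 0.0507 to 0.0822). Without labelled hep-/- mouse 3 the list held 3 higher and 5 lower genes.

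Of 21 genes of PPARα, CREBH and fasting, which include the inducers of *Fgf21* in starvation, 5 were lower and none higher (median log2 fold change -0.22). At an unadjusted p under 0.05, 7 were lower and 2 higher. DESeq2 called 7 lower and 1 higher, and limma on log2(FPKM + 1) 8 lower and none higher. *Ehhadh*, of peroxisomal β-oxidation, fell from 1707 ± 272 to 538 ± 176 CPM (-1.66, SE 0.28, adjusted p = 0.0057), and *Hadha*, of the mitochondrial trifunctional protein, from 533 ± 75.2 to 207 ± 42.6 CPM (-1.37, SE 0.22, adjusted p = 0.0051). *Plin2*, a lipid droplet coat protein, fell by 1.06 (adjusted p = 0.021), *Cpt1a*, which admits fatty acids to mitochondria, by 0.87 (adjusted p = 0.0254) and *Cyp4a14*, named here after its values were seen, by 0.72 (adjusted p = 0.0429). Calls of *Ehhadh* and *Hadha* held without each mouse, that of *Plin2* was lost without flox/flox mouse 2 or labelled hep-/- mouse 1 and that of *Cpt1a* without either or labelled hep-/- mouse 2 (adjusted p 0.0521 to 0.0775 for the pair). The call of *Cyp4a14* was lost without each mouse except labelled hep-/- mouse 3 (adjusted p 0.0637 to 0.125), and with the looser count filter (adjusted p = 0.0951). *Fgf21* had a log2 fold change of 0.68 that missed the threshold, and its relation to these 5 genes was not tested.

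Of 15 insulin and FOXO response genes, the group to which *Igfbp1* answers, 2 were higher and none lower (median log2 fold change 0.18); 2 were lower at an unadjusted p under 0.05, and DESeq2 called none lower. *Ppp1r3b*, a glycogen-targeting phosphatase subunit, rose from 44.6 ± 16.3 to 101 ± 51.7 CPM (1.18, SE 0.33, adjusted p = 0.0341), was highest in labelled hep-/- mouse 3 at 160 CPM, and lost its call without it (0.66, adjusted p = 0.138) or without flox/flox mouse 1, 2 or 4. Among 20 genes of hepatocyte identity, *Apoc3*, an apolipoprotein, was higher (1.18, SE 0.28, adjusted p = 0.0183) and *Cyp2e1*, a cytochrome P450, lower (-1.32, SE 0.29, adjusted p = 0.0145), with a median of 0.05; *Apoc3* lost its call without flox/flox mouse 2 or 3 or labelled hep-/- mouse 1 (adjusted p 0.0509 to 0.0676), and without labelled hep-/- mouse 3 this list held 1 higher and 4 lower genes.

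**Figure D5:**
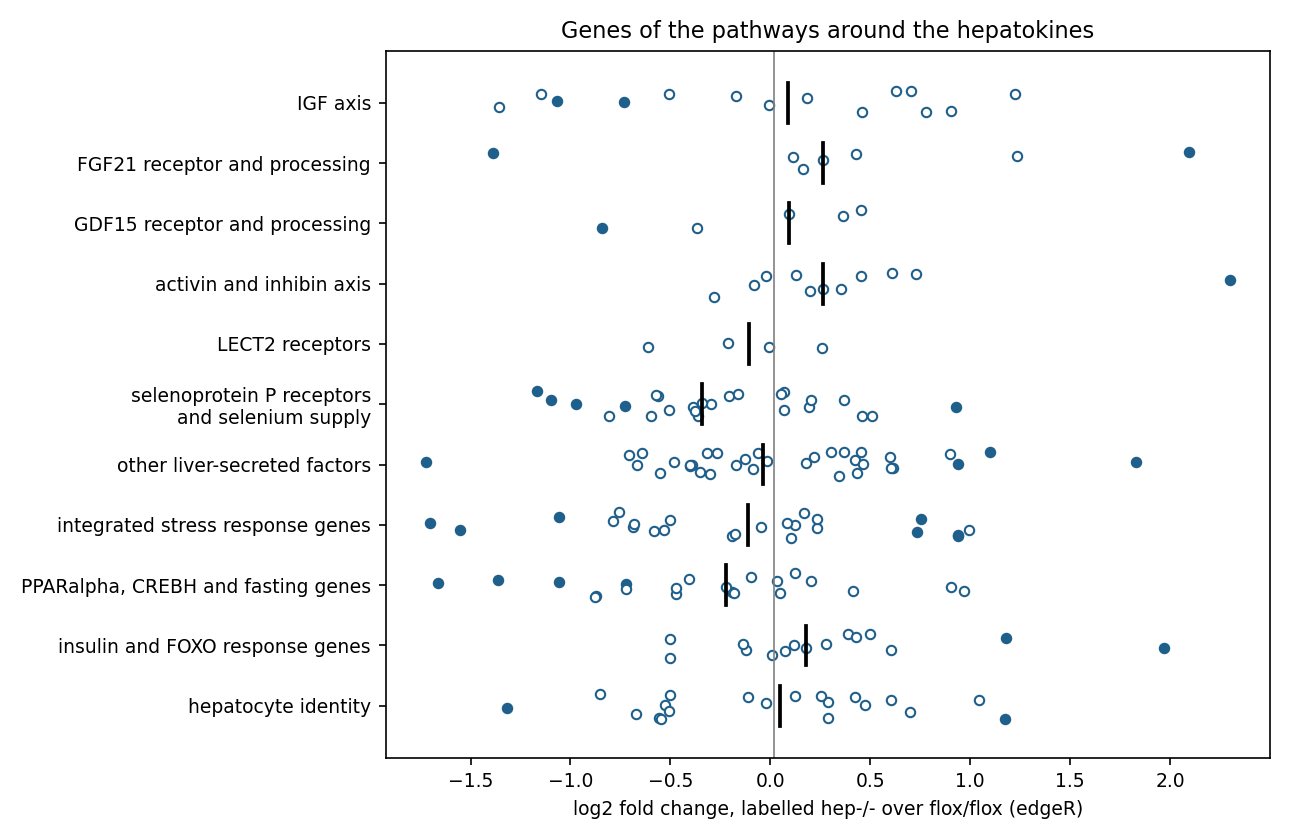
Log2 fold change (labelled *B4galt1* hep-/- over *B4galt1* flox/flox, edgeR) of the tested genes in 11 lists around the hepatokines, the members left out; filled points passed the thresholds, black bars are list medians and the grey line is the median of all tested genes, 0.021. Filled points stand on both sides in 5 of the 11 lists, and the median is lowest for the selenium list at -0.34.

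On FPKM values, which are scaled by library totals and not by TMM, the members shifted downwards with the rest of the transcriptome. In limma on log2(FPKM + 1), where log2 fold changes lay a median of 0.12 lower, 561 genes were higher and 1733 lower, compared with 1215 and 1189 by edgeR. There *Igfbp4* (-0.63, adjusted p = 0.0221), *Lect2* (-0.73, adjusted p = 0.015), *Inhbe* (-0.97, adjusted p = 0.0437) and *Selenop* (-0.80, adjusted p = 0.0367) passed the thresholds as lower, and *Fetub* (0.68, adjusted p = 0.0109) remained higher. The balance of directions in the lists around the members moved too, to 2 higher and 5 lower for the integrated stress response, 1 and 7 for hepatocyte identity, 1 and 1 for the insulin and FOXO response, in which *Ppp1r3b* lost its call (adjusted p = 0.0522), and 1 and 2 for the IGF axis. In the stress response list, *Ddit3* (0.52, adjusted p = 0.0649) and *Ppp1r15a* (0.57, under the fold threshold) lost theirs. *Fap* and *Inha* were too low for the FPKM filter and were not tested there. Fold changes on this scale understate those of genes with low values.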

How the data were processed

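Liver RNA of 7 CDAHFD-fed mice was analysed, 4 *B4galt1* flox/flox and 3 labelled *B4galt1* hep-/-, grouped by the sample labels. The authors extracted RNA with TRIzol and used a VAHTS Universal V6 kit for the libraries, which OE Biotech sequenced. Per the labels, the submitters' processing notes name fastp, HISAT2, HTSeq, DESeq2, R 3.2.0 and GRCm39, without roles; the annotation and the strand setting are not given in the sources used here. The authors deposited counts, whole numbers per gene without normalization, and FPKM for the same genes and mice. Each library is 1 mouse, and p-values measure the spread between mice.

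Counts were filtered with filterByExpr (minimum count 10, minimum total 15), scaled by TMM factors, and fitted with the group alone in edgeR 4.0.16 under R 4.3.3, using its quasi-likelihood F-test with Benjamini-Hochberg adjustment. Calls needed both adjusted p under 0.05 and a log2 fold change beyond 0.58 in either direction, the study's thresholds. SEs were computed from the F statistic. The fit was tested on simulated data in which 50 genes were changed at each size. It recovered 96% at a true log2 fold change of -2 or 2, 16% at -1 and 12% at 1. There 112 genes were called, against 2404 in these data, so these shares need not hold here. CPM values are TMM-normalized. Other settings tried were RLE or upper-quartile scaling, DESeq2 1.42.0, libraries without the 13 mitochondrially encoded genes, a looser filter (1 count in any mouse) and a stricter one (10 in each), limma 3.58.1 with a pseudocount of 1 or 0.1 on log2 FPKM where 3 mice reached an FPKM of 1, the former also unfiltered, the replicate number as a block, voom with quality weights per mouse, no fold change threshold, and each mouse left out. Genes were matched by symbol to RefSeq GRCm38.p6 (all 10 members) for neighbours and for the 200 bases before each start site. As this build is not that of the counts, no gene coordinates are given. These windows were searched on both strands for TGATGNAA, CAAAACAA, the HNF1 motif GTTAAT (5.06% of windows; *Gdf15*, *Igfbp1* and *Lect2*), TTGCNNAA, TTCNNNGAA (5.49%; no member) and CAAAGTCC (0.956%; no member), and no 2 matches in a member's window overlapped.

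The members and lists were chosen with earlier results of these data known, and list counts are descriptions. Named were all members, *B4galt1*, family genes beside a member, up to 4 called genes per list by size and, where fewer than 2 were called, the gene with the highest mean; 2 genes that this rule names are not reported here. No 2 libraries agreed within sampling noise. Markers of other cells were summed too: stellate cells and fibroblasts 982 to 1525 CPM in flox/flox and 871 to 1449 CPM in labelled hep-/- livers (1 of 10 lower), endothelium 140 to 518 and 203 to 221 CPM (1 of 10 lower), cholangiocytes 255 to 660 and 260 to 878 CPM (none of 7 called by edgeR or DESeq2, none at an unadjusted p under 0.05), and lymphocytes and neutrophils 26.6 to 43.6 and 28.0 to 65.8 CPM (likewise none of 9).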

Additional observations from a re-analysis of the deposited data

Results flagged for a closer look

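The gene for methionine sulfoxide reductase B1, *Msrb1*, stood at 277.9 CPM in *B4galt1* flox/flox mouse 4, apart from the other 3 controls, the nearest of which was at 228.8 CPM (Dixon's ratio of gap to range 0.853, past its 95% critical value). Of 42 genes examined in this way among the controls this was the sole one, where chance gives about 1 in 20. The fall of *Msrb1* was called without this mouse as well.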

How the results depend on the processing

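By edgeR 0 members were lower and 1 higher. Lower members numbered 1 with DESeq2, with the looser count filter and with limma on log2(FPKM + 1) without a filter, and 4 with limma on log2(FPKM + 1) or log2(FPKM + 0.1); voom with sample quality weights gave 1 lower and 3 higher. *Fetub* kept its call in all of these, and under RLE and upper-quartile normalization, without the mitochondrially encoded genes, with the stricter count filter and without a fold change threshold. With the replicate number as a block (replicate block) 0 members were higher, *Fetub* differing by 0.93 (adjusted p = 0.0837), and 652 genes were higher and 615 lower, against 1215 and 1189. Deviations of same-numbered mice correlated at -0.34, -0.03 and 0.08, and those of differently numbered mice at -0.32 to 0.49. Whether the numbers pair the mice cannot be told from these few values. Leaving out each mouse gave 0 to 1 members higher, 0 to 1 lower, 411 to 1291 genes higher and 474 to 1175 lower. Limma called 561 genes higher on log2(FPKM + 1), 242 without a filter, and 601 higher and 1946 lower on log2(FPKM + 0.1). Leaving out mice changed the sign of the log2 fold change for *Igfbp1* (-0.31 to 0.88), *Ahsg* (-0.43 to 0.011), *Inhbc* (-0.12 to 0.34) and *Igfbp5* (-0.21 to 0.43, and -0.017 under the block). Of 180 values for the members under alternatives, 156 kept direction and side of the threshold. Another 6 lost a call, 16 gained one and 2 changed sign. All 6 losses were of *Fetub*, the single called member, which kept its call in 12 of 18 alternatives. The 31 other named genes gave 461, 82, 5 and 3 of 551, in the same order. Counts per related list stayed within 1.5 times in 317 of 418 cases. Causes were not tested. With 4 and 3 mice and a biological coefficient of variation of 0.30, a difference that missed the threshold is not shown to be absent.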
